A study of Homo sapiens with 4 samples.

Results

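Plasminogen activators and serpins were followed in HCT116 cells, a long-established line from a human colorectal carcinoma. The group held 8 genes chosen by name, of 29286 genes listed, and each name matched 1 Ensembl identifier: PLAU, PLAUR, PLAT, SERPINE2, SERPINB1, SERPINB5, SERPINB6 and SERPINB8. Cells carried either a lentiviral short hairpin against WDR43 (shWDR43, 2 libraries) or a control hairpin (shNC2 in the titles, shNC here, 2 libraries). The cells of all 4 libraries had been infected for 48 h and kept under puromycin for 3 days before total RNA was taken, so infection and selection were shared by both groups. WDR43 encodes a nucleolar protein of small ribosomal subunit assembly, and the comparison asked how transcript levels differed after its knockdown. Only 1 name of a WDR43 hairpin is given in the labels, and they do not say whether replicates were separate cultures. The p-values therefore reflect no more than the spread among these 4 libraries, and that spread may be technical.

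Plasminogen is a circulating zymogen that is cut to plasmin, a protease that degrades fibrin and activates other matrix proteases. The cut is made by urokinase, encoded by PLAU and held at the cell surface by its receptor, encoded by PLAUR, or by tissue-type activator, encoded by PLAT. Serpins are a family of proteins most of which trap serine proteases by offering a reactive loop as bait. SERPINE2 acts outside the cell, while the clade B members reside mainly inside cells. In colorectal tumours the urokinase system is known for its part in invasion.

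The values were read as FPKM, read fragments relative to transcript length and to all mapped fragments. Library sums differed little, no read totals were used, and the depth behind a value is unknown. Of 9 colorectal epithelial markers listed, 6 were at 1 FPKM or more in all libraries. Marker sums were 1746 and 2067 FPKM in shNC and 2501 and 2444 FPKM in shWDR43. The keratin genes KRT8, KRT18 and KRT19 made up most of each sum and were higher in both shWDR43 libraries. For EPCAM, CDH1 and CDX2 the groups overlapped. VIL1, LGALS4 and CDH17 were at 0.202 FPKM or less in every library. Leukocyte and endothelial marker sums were at 0.286 FPKM or less, and the fibroblast marker sum of 5.77 to 7.85 FPKM was almost all COL1A1. WDR43 itself was not analysed here, so the hairpin labels were not checked against their target. Over 13303 tested genes limma, run on log2(FPKM + 1), called 833 at the 0.05 level after adjustment, which is 6.26%, with 637 higher (4.79%) and 196 lower (1.47%) in shWDR43. After upper-quartile scaling the split was 194 higher to 182 lower.

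All 8 genes passed the filter on low values and were tested. Higher levels in shWDR43 were called for PLAU and SERPINB5, and no member was called lower, with 4 higher and 0 lower at an unadjusted p below 0.05. The called share stands beside 4.79% of all tested genes called higher and 1.47% called lower. At the unadjusted cut 26.4% of all tested genes passed, 17.8% higher and 8.63% lower. In 6 of the 8 genes both shWDR43 libraries lay above both shNC libraries, and in SERPINB8 both lay below, while 35.8% of all tested genes had groups apart in the upward direction and 21.5% in the downward direction. The median log2 difference of the 8 genes was 0.23, against 0.05 for all tested genes.

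**Figure D1:**
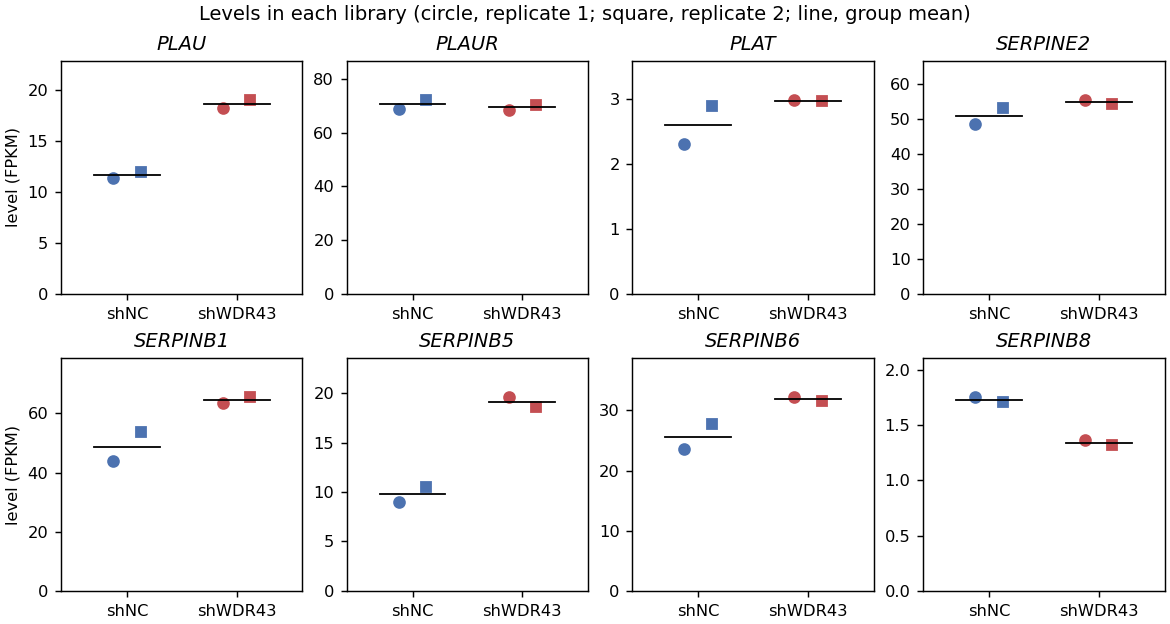
Level in FPKM (vertical axis, from 0) of each of the 8 genes in the 4 libraries, with circles for replicate 1, squares for replicate 2 and a line at each group mean. PLAU and SERPINB5 stand apart between groups by far more than within them, PLAUR lies at 68.6 to 72.2 FPKM in all libraries, and the shNC libraries of SERPINB1 differ from each other more than the shWDR43 libraries do.

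PLAU (ENSG00000122861), the urokinase gene, lies on chromosome 10 at 73909177 to 73917497, plus strand (GRCh38, GENCODE release 29). It was at 11.4 and 11.99 FPKM in shNC replicates 1 and 2 and at 18.2 and 19.0 FPKM in shWDR43 replicates 1 and 2. The groups did not overlap, and the 2 libraries of each group lay within 1.05-fold of each other. PLAU rose 1.59-fold, its mean and SD over 2 libraries being 11.7 ± 0.419 FPKM in shNC and 18.6 ± 0.590 FPKM in shWDR43, with a log2 difference of 0.63 ± 0.09 (SE) on the log2(FPKM + 1) scale and an adjusted p of 0.0160. It ranked 94th of 13303 tested genes by p-value. C10orf55, a gene on the opposite strand, overlaps PLAU over 7529 bases, and 19.85% of all 50-base stretches of the longest coding PLAU transcript also occur in it. C10orf55 was listed at 0.200 to 0.330 FPKM in all libraries. No source used here gives the strand setting, so reads of the pair cannot be told apart with certainty.

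SERPINB5 (ENSG00000206075) encodes maspin, a serpin without known protease-inhibiting activity that is described as a tumour suppressor and as a transcriptional target of p53. Its locus on chromosome 18 spans 63476761 to 63505085, plus strand. It measured 9.04 and 10.5 FPKM in the shNC libraries, against 19.6 and 18.6 FPKM under shWDR43. Even the lower shWDR43 value was well above the higher shNC value. In bulk RNA, more cells expressing a gene and more RNA per cell cannot be told apart. SERPINB5 rose 1.96-fold, its mean and SD over 2 libraries being 9.75 ± 1.006 FPKM in shNC and 19.1 ± 0.692 FPKM in shWDR43, with a log2 difference of 0.91 ± 0.10 (SE) and an adjusted p of 0.00919. By p-value it ranked 33rd of all tested genes, and by the size of the rise 38th. None of its 50-base stretches occurred in a transcript of another gene.

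The 200 bases before the RefSeq start (GRCh38.p14) are shown for the 2 genes that rose and, for comparison, for the urokinase receptor gene and for the serpin gene at the far end of the SERPINB5 cluster, neither of which was called. Capitals mark matches, on either strand, to the AP-1 letters TGANTCA or the SP1 box GGGCGG; the E-box CACGTG was searched too and had no match in these 4 sequences. Each is written 5′ to 3′ on the strand of its gene. In order they cover chr10:73910932-73911131 (plus), chr18:63476758-63476957 (plus), chr19:43670170-43670369 (minus) and chr18:63969881-63970080 (plus).
PLAU: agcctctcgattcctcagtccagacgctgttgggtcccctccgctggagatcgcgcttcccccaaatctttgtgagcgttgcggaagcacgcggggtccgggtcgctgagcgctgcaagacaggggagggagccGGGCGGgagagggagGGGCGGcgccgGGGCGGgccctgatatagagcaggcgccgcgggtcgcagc
SERPINB5: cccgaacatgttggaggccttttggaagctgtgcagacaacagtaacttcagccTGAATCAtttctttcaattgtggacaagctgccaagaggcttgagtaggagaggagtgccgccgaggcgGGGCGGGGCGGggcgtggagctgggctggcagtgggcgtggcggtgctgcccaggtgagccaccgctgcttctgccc
PLAUR: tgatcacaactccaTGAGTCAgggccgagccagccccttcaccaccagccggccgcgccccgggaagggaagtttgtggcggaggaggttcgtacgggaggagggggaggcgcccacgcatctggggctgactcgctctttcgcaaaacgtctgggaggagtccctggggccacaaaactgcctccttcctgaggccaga
SERPINB8: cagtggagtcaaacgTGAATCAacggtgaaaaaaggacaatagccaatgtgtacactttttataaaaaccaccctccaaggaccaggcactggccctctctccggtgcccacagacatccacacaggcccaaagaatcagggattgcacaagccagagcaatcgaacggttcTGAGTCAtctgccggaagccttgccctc
The PLAU stretch held 3 SP1 boxes and no AP-1 match. SERPINB5 held 1 AP-1 match and 2 SP1 boxes that overlap by 1 base, PLAUR held 1 AP-1 match, and SERPINB8 held 2. Among 35116 RefSeq windows, each from 250 bases before to 50 after a start, 44.95% held an SP1 box, 7.71% an AP-1 match and 7.26% an E-box. The SP1 box was not particular to the genes that rose: in the windows of the uncalled genes SERPINE2, SERPINB1 and SERPINB6 there were 2, 2 and 3. The AP-1 letters were present in 1 gene that rose and in 2 that were not called. A match describes these letters only. The start that GENCODE gives for the principal transcript lies 25 bases from the RefSeq start for PLAU. For the other genes printed it lies 156 to 197 bases before the RefSeq start, inside the printed stretch. By that annotation much of those stretches, with the SERPINB5 AP-1 match, lies past the start. For SERPINE2, SERPINB1 and SERPINB6 it lies 679, 143 and 289 bases before the RefSeq start. For genes with several RefSeq starts the nearest was used. Windows at the other starts held 0 SP1 boxes for PLAU, 1 for SERPINE2, and 1, 1 and 0 for SERPINB6.

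PLAUR (ENSG00000011422; chromosome 19, 43646095 to 43670547, minus strand) encodes the receptor that anchors urokinase to the membrane through a lipid tail. It was the most abundant of the 8 transcripts, ranked 614th of 13303 by mean level. Its values were 68.8 and 72.2 FPKM in shNC and 68.6 and 70.4 FPKM in shWDR43. The groups overlapped, and the log2 difference was -0.02 with a 95% interval of -0.21 to 0.17 (adjusted p = 0.900). Within a library the ratio of PLAU to PLAUR, which no library scaling can move, was 0.166 in both shNC libraries and 0.266 and 0.271 in the shWDR43 libraries. This ratio was thus higher in both shWDR43 libraries. An exact permutation test of such a ratio with 2 libraries against 2 cannot go below a two-sided p of 0.333.

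PLAT (ENSG00000104368; chromosome 8, 42175233 to 42207724, minus strand) encodes the tissue-type activator, best known for dissolving clots. It was low, at 2.30 and 2.89 FPKM in shNC and 2.99 and 2.96 FPKM in shWDR43. The shWDR43 values lay just above the higher shNC value. The log2 difference was 0.15, with an interval of -0.14 to 0.44 (adjusted p = 0.492), and leaving out shNC replicate 1 made it 0.03, leaving out shNC replicate 2 made it 0.27. Within a library PLAU exceeded PLAT 4.96-fold and 4.15-fold in shNC and 6.10-fold and 6.43-fold in shWDR43.

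SERPINE2 (ENSG00000135919; chromosome 2, 223975112 to 224039319, minus strand) encodes protease nexin-1, which inhibits thrombin, urokinase and plasmin. It measured 48.4 and 52.9 FPKM in the shNC libraries, against 55.4 and 54.1 FPKM under shWDR43. The groups lay side by side without overlap, but the log2 difference of 0.11 (interval -0.08 to 0.30) did not pass the test (adjusted p = 0.435). Within a library PLAU to SERPINE2 was 0.236 and 0.227 in shNC and 0.329 and 0.352 in shWDR43, so the groups were apart in this ratio.

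**Figure D2:**
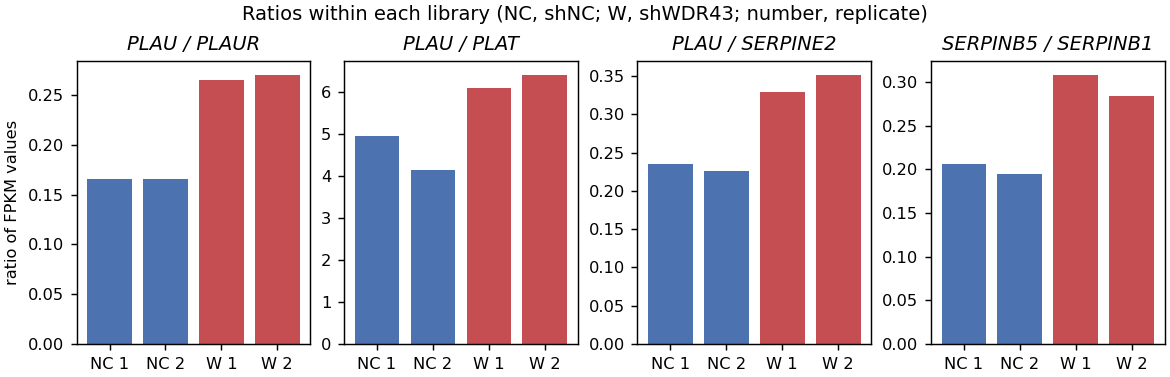
Ratio of the FPKM values of 2 genes (vertical axis, from 0) within each of the 4 libraries, shNC in blue and shWDR43 in red. PLAU to PLAUR goes from 0.166 in both shNC libraries to 0.266 and 0.271, PLAU to SERPINE2 and PLAU to PLAT are also higher in both shWDR43 libraries, and SERPINB5 to SERPINB1 goes from 0.206 and 0.195 to 0.309 and 0.284.

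The clade B serpins protect cells from their own or from leukocyte proteases. SERPINB1 (ENSG00000021355; chromosome 6, 2832332 to 2842006, minus strand) inhibits the neutrophil proteases elastase, cathepsin G and proteinase 3. Its values were 43.8 and 53.8 FPKM in shNC and 63.5 and 65.6 FPKM in shWDR43. The groups did not overlap, yet the shNC libraries differed 1.23-fold from each other against 1.03-fold for the shWDR43 libraries. The log2 difference of 0.40 (interval 0.15 to 0.65) missed the threshold (adjusted p = 0.0660). It passed without shNC replicate 1 (0.26, adjusted p = 0.0414), without shNC replicate 2 (0.55, adjusted p = 0.00350) and with a filter at 5 FPKM (adjusted p = 0.0479). Under the scalings, the other filter and without either shWDR43 library the adjusted p was 0.112 or more.

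SERPINB6 (ENSG00000124570; chromosome 6, 2948159 to 2972165, minus strand), an inhibitor of trypsin-like proteases and cathepsin G, measured 23.5 and 27.8 FPKM in the shNC libraries, against 32.2 and 31.5 FPKM under shWDR43. As for SERPINB1, both shWDR43 libraries were above both shNC libraries and shNC replicate 1 was the lowest. The log2 difference of SERPINB6 was 0.31 (interval 0.08 to 0.53, adjusted p = 0.102). Without shNC replicate 1 it was 0.19, and without shNC replicate 2 it was 0.42. The ratio of SERPINB1 to SERPINB6 within a library was 1.86 and 1.93 in shNC and 1.97 and 2.08 in shWDR43. SERPINB9, the inhibitor of granzyme B, lies between them and measured 19.9 and 19.8 FPKM in the shNC libraries, against 20.1 and 22.1 FPKM under shWDR43 (log2 difference 0.08, adjusted p = 0.579).

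SERPINB8 (ENSG00000166401; chromosome 18, 63969925 to 64019779, plus strand), an inhibitor of the proprotein convertase furin, was the lowest of the 8. It measured 1.75 and 1.71 FPKM in the shNC libraries, against 1.36 and 1.32 FPKM under shWDR43. Both shWDR43 values were lower, with a ratio of means of 0.775, and each group was tight. The log2 difference of -0.22 (interval -0.52 to 0.08) did not pass (adjusted p = 0.316), and with a pseudocount of 0.1, which shrinks low genes less, it was -0.34 (adjusted p = 0.320). HMSD, on the same strand, overlaps SERPINB8, was listed at 0.257 to 0.764 FPKM, and holds 9.42% of its 50-base stretches. AC009802.1 on the opposite strand holds a further 5.75%, so the SERPINB8 level is uncertain. FURIN, the protease it inhibits, was at 10.2 and 9.14 FPKM in shNC and 12.6 and 12.2 FPKM in shWDR43 (log2 difference 0.33, adjusted p = 0.0782).

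SERPINB5 and SERPINB8 mark the ends of a serpin cluster of 543019 bases on chromosome 18. Between them SERPINB12 was listed at 0 in all libraries, and SERPINB2, SERPINB3, SERPINB4 and SERPINB7 were at 0.132 FPKM or less in each. SERPINB2 encodes plasminogen activator inhibitor 2, and SERPINB3 and SERPINB4 are near-identical copies whose reads could be split. SERPINB10, SERPINB11 and SERPINB13 were not analysed here. Of the cluster genes analysed, those at its ends were the 2 above 1 FPKM, and SERPINB5 was called higher. Within a library the ratio of SERPINB5 to SERPINB8 was 5.15 and 6.13 in shNC and 14.4 and 14.1 in shWDR43, and to SERPINB1 it was 0.206 and 0.195 in shNC and 0.309 and 0.284 in shWDR43.

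**Figure D3:**
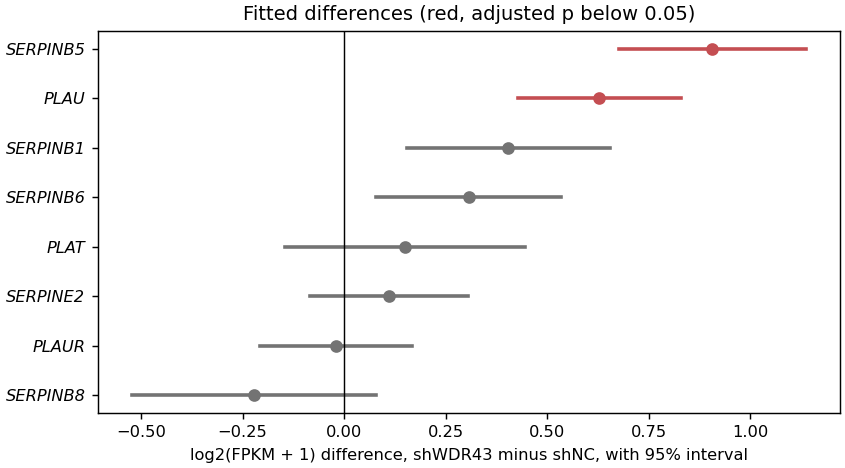
Fitted log2(FPKM + 1) difference, shWDR43 minus shNC (horizontal axis), with its 95% interval for the 8 genes. SERPINB5 (0.91) and PLAU (0.63) passed the test and are in red. The intervals of SERPINB1 and SERPINB6 lie above 0 without passing after adjustment over all genes, and those of PLAT, SERPINE2, PLAUR and SERPINB8 span 0.

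By level per length, PLAUR led in both groups. In shNC it was followed by SERPINE2 (50.7 ± 3.23 FPKM) and SERPINB1 (48.8 ± 7.04 FPKM), whose libraries overlapped, then by SERPINB6 (25.7 ± 3.05 FPKM), PLAU, SERPINB5, PLAT (2.59 ± 0.417 FPKM) and SERPINB8 (1.73 ± 0.0348 FPKM; mean ± SD, n = 2 each). In shWDR43 SERPINB1 (64.6 ± 1.43 FPKM) was above SERPINE2 (54.7 ± 0.882 FPKM) in both libraries, and the values of SERPINB5 and PLAU overlapped.

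Genes near the 8 were examined as a description of the loci. Within 200 kb of a member's start 39 other genes were tested. With limma 0 were called, against 6.26% of all tested genes. At an unadjusted p below 0.05 there were 6, against 26.4% of all tested genes. The log2 differences of the 39 genes ran from -0.47 to 0.33. KDSR and VPS4B, the 2 tested neighbours of SERPINB5, had log2 differences of 0.33 (adjusted p = 0.103) and 0.13 (adjusted p = 0.352).

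Patterns most like those of the called genes were sought by Euclidean distance between 4 values of log2(FPKM + 1) about their own mean. The search covered the 8216 tested genes with a symbol that averaged 5 FPKM or more, less the called gene itself. Nearest to PLAU were ANGPTL4 (distance 0.0264) and DKK1 (distance 0.0366). ANGPTL4 encodes a secreted inhibitor of lipoprotein lipase and was at 89.0 and 94.4 FPKM in shNC and 140.9 and 143.7 FPKM in shWDR43. DKK1 encodes a secreted WNT antagonist and was at 75.8 and 77.4 FPKM in shNC and 115.3 and 118.8 FPKM in shWDR43. Nearest to SERPINB5 were FDXR (distance 0.0574), the ferredoxin reductase gene, at 19.0 and 22.2 FPKM in shNC and 38.7 and 38.6 FPKM in shWDR43, and PPP1R14C (distance 0.0596), a phosphatase inhibitor gene, at 4.98 and 5.64 FPKM in shNC and 10.8 and 10.1 FPKM in shWDR43. With 4 libraries many genes share such a pattern, and likeness here is a description only.

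Among other genes of the plasminogen system that were counted, 13 of 22 were tested, and limma called 0 higher and 0 lower, with 2 higher and 0 lower at an unadjusted p below 0.05. Over all tested genes 4.79% were called higher and 1.47% lower, and 17.8% were higher and 8.63% lower at the unadjusted cut. The median log2 difference of the list was 0.11, against 0.05 for all tested genes. PLGRKT, a plasminogen receptor gene, was at 5.18 and 7.13 FPKM in shNC and 9.05 and 9.55 FPKM in shWDR43 (log2 difference 0.54, adjusted p = 0.0615). It passed without shNC replicate 2 (adjusted p = 0.00456) and without shWDR43 replicate 1 (adjusted p = 0.0494). The plasminogen-binding annexin gene ANXA2 was at 875 and 996 FPKM in shNC and 1159.7 and 1162 FPKM in shWDR43 (log2 difference 0.31, adjusted p = 0.146). Without shNC replicate 1 that difference was 0.22, and without shNC replicate 2 it was 0.41. The list's count was 0 after either scaling. Over all genes 310 were called higher after median-ratio scaling and 194 after upper-quartile scaling.

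Among 30 other serpins counted, 7 were tested, and limma called 0 higher and 0 lower, against 4.79% and 1.47% of all tested genes. At an unadjusted p below 0.05 there were 0 in either direction, against 17.8% higher and 8.63% lower of all tested genes. The median log2 difference of the list was 0.08. SERPINA1, the gene of alpha-1-antitrypsin, was at 2.24 and 3.32 FPKM in shNC and 3.35 and 3.91 FPKM in shWDR43 (log2 difference 0.30, adjusted p = 0.265). SERPINI1, the neuroserpin gene and on both lists, was at 5.24 and 5.13 FPKM in shNC and 6.08 and 5.72 FPKM in shWDR43 (log2 difference 0.16, adjusted p = 0.347). After either scaling the count of serpins called higher was 0.

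Urokinase acts among other surface proteases. Of 30 serine proteases and Kunitz inhibitors 18 were tested, 3 rose and 0 fell, with 10 higher and 0 lower at an unadjusted p below 0.05 in limma. The all-gene shares were 4.79% called higher and 1.47% called lower, with 17.8% higher and 8.63% lower at the unadjusted cut. The list median was 0.27. The kallikrein genes KLK6 (12.2 ± 1.07 to 19.0 ± 1.17 FPKM) and KLK10 (1.45 ± 0.143 to 2.63 ± 0.00658 FPKM) rose, as did ST14 (25.7 ± 0.111 to 33.2 ± 0.588 FPKM; mean ± SD, n = 2 per group), the gene of matriptase, which can activate urokinase. KLK6 held after both scalings and without any 1 library, while ST14 and KLK10 did not pass after either scaling or without either shWDR43 library. The list's count was 1 after either scaling. Over all genes 637 were called higher as deposited, 310 after median-ratio scaling and 194 after upper-quartile scaling. The matriptase inhibitor gene SPINT1 was at 32.7 and 32.9 FPKM in shNC and 38.5 and 39.6 FPKM in shWDR43 (adjusted p = 0.0968).

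Coagulation receptors and factors had 11 tested of 16, of which 2 rose and 0 fell, against 4.79% and 1.47% of all tested genes. At an unadjusted p below 0.05 in limma 5 were higher and 0 lower, against 17.8% and 8.63% of all tested genes. The list median was 0.25. GAS6, a ligand of TAM receptor kinases, had a log2 difference of 0.47 (adjusted p = 0.0317), and F11R, the junctional adhesion molecule A gene, of 0.41 (adjusted p = 0.0391). Neither F11R nor GAS6 passed after upper-quartile scaling or without either shWDR43 library. The list's count was 1 after median-ratio scaling and 0 after upper-quartile scaling. Over all genes 310 and 194 were called higher after these scalings. Among metalloproteases and their inhibitors 11 of 26 were tested, 2 rose and 0 fell, again against 4.79% and 1.47% of all tested genes. At an unadjusted p below 0.05 in limma 4 were higher and 0 lower, against 17.8% and 8.63% of all tested genes. The list median was 0.18. The genes that rose were the membrane-type protease gene MMP15 (8.57 ± 0.141 to 12.2 ± 0.345 FPKM) and the inhibitor gene TIMP2 (28.9 ± 0.616 to 37.0 ± 0.379 FPKM; mean ± SD, n = 2 per group). MMP9, MMP2 and MMP3, secreted targets of the plasmin cascade, were at 0.124 FPKM or less in every library. MMP13 was at 0.0349 FPKM or less. MMP1, too low to be tested, was at 0.0302 and 0.0594 FPKM in shNC and 0.425 and 0.303 FPKM in shWDR43. Neither MMP15 nor TIMP2 passed after upper-quartile scaling or without either shWDR43 library. The count of this list was 1 after median-ratio scaling and 0 after upper-quartile scaling.

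The urokinase receptor is known to signal through some integrins. A list of integrins, matrix ligands, syndecans and CAV1 had 15 tested genes of 19 counted. Of these 5 rose, ITGB4 being the only integrin gene among them, and 0 fell. At an unadjusted p below 0.05 in limma 8 were higher and 0 lower. Beside these stand 4.79% of all tested genes called higher and 1.47% called lower. At the unadjusted cut 17.8% of all tested genes were higher and 8.63% lower. The list median was 0.27. The syndecan gene SDC4 was at 65.1 and 72.7 FPKM in shNC and 140.7 and 139.4 FPKM in shWDR43, a rise of 1.014 ± 0.09 on the log2 scale (SE, adjusted p = 0.00395). The laminin chain gene LAMB3 (17.5 ± 0.581 to 29.6 ± 0.0427 FPKM) rose, as did the integrin gene ITGB4 (71.8 ± 5.71 to 116.1 ± 0.563 FPKM; mean ± SD, n = 2 per group). SDC1, another syndecan gene, had a log2 difference of 0.71 (adjusted p = 0.0162). LAMA3, also a laminin chain gene and singled out after its value was seen, had a log2 difference of 0.86 (adjusted p = 0.0199). The fibronectin gene FN1 was at 7.84 and 6.58 FPKM in shNC and 5.63 and 6.25 FPKM in shWDR43 (adjusted p = 0.230). The list's count was 5 after either scaling. Over all genes 310 were called higher after median-ratio scaling and 194 after upper-quartile scaling.

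Cathepsins, intracellular proteases that clade B serpins meet, and their inhibitors had 13 tested of 15. Of these 3 rose and 0 fell, against 4.79% and 1.47% of all tested genes. At an unadjusted p below 0.05 in limma 6 were higher and 1 lower, against 17.8% and 8.63% of all tested genes. The list median was 0.27. The lysosomal protease genes CTSD (22.8 and 24.9 to 33.3 and 31.6 FPKM) and CTSL (19.6 ± 1.33 to 27.2 ± 1.69 FPKM) and the inhibitor gene CST3 (39.6 ± 5.00 to 56.7 ± 2.44 FPKM; mean ± SD, n = 2 per group) rose. The inhibitor gene CSTA was at 2.97 and 3.48 FPKM in shNC and 2.43 and 1.76 FPKM in shWDR43 (adjusted p = 0.102). The list's count of genes called higher was 0 after either scaling, and CTSD and CTSL did not pass without either shWDR43 library. Over all genes 310 were called higher after median-ratio scaling and 194 after upper-quartile scaling.

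**Figure D4:**
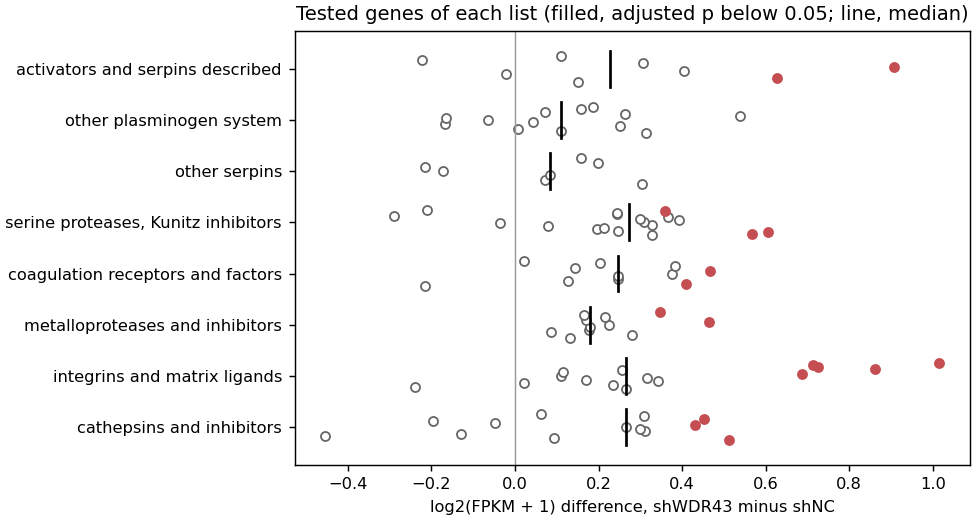
Log2(FPKM + 1) difference, shWDR43 minus shNC (horizontal axis), of every tested gene of the 8 activators and serpins and of each list, with filled points for genes that passed the test and a line at each median. The filled points all lie to the right of 0, 5 of them among integrins and matrix ligands, and the medians run from 0.08 to 0.27.

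The calls of PLAU and SERPINB5 held in each fit that left out 1 library and after both scalings. For PLAU the log2 difference ran from 0.59 to 0.66 over the fits that left out a library, and for SERPINB5 from 0.81 to 1.00. Neither passed a test against a 1.5-fold change, nor when all genes above 0 in any library were tested together (adjusted p = 0.0995 and 0.0803).

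**Figure D5:**
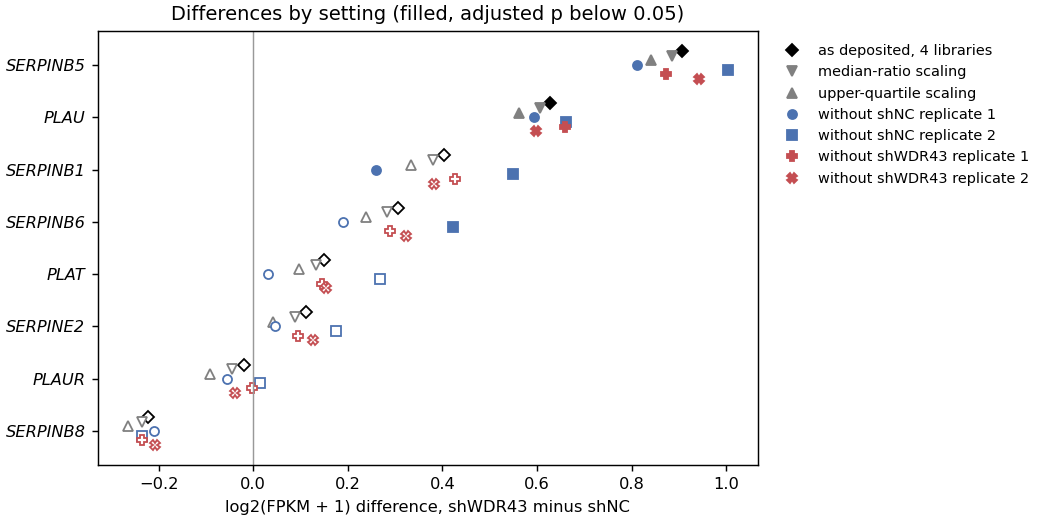
Log2(FPKM + 1) difference, shWDR43 minus shNC (horizontal axis), of the 8 genes with all 4 libraries as deposited, after 2 kinds of scaling and without each library in turn, filled where the adjusted p was below 0.05. PLAU and SERPINB5 are filled in all 7 settings, SERPINB1 in the settings without an shNC library, SERPINB6 without shNC replicate 2, and the other 4 genes in none. In fits without a library the spread came from the other group alone.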

How the data were processed

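RNA sequencing libraries of HCT116 cells, 2 with a control hairpin and 2 with a WDR43 hairpin, were grouped by their titles. Per the labels' protocols, libraries were made with a TruSeq RNA kit from 1 ug of total RNA. The submitters' processing notes name GRCh38 and, with no roles, RSEM, HISAT2, edgeR, FastQC, Trimmomatic and CASAVA 1.8. Annotation release and strand setting were not given in the sources used here. FPKM is the unit taken for what the authors deposited, inferred from the values, and TPM over part of the genes would look alike. Low values showed no whole-read steps: the fullest 1% window of ratios between libraries held at most 1.19% of genes below 0.3 FPKM. Depth is therefore unknown, and no interval that needs counts is given.

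Of 29286 listed genes, besides 1 blank entry left out, 29170 had a symbol and 28468 a GENCODE 29 position. limma 3.58.1 (R 4.3.3, statmod 1.5.0) was fitted to log2(FPKM + 1) for genes reaching 1 FPKM in 2 or more libraries, with the group as the only term, a mean-variance trend and robust moderation. Two-sided p-values were adjusted by Benjamini-Hochberg over all 13303 tested genes, with a threshold of 0.05. Log2 differences understate the change of low genes. No scaling was added. As a check of the code, the fit was run on simulated data whose spread was drawn from the fit itself. It could not test whether that spread suits these libraries. The members and lists were chosen with earlier results of these data known. Some genes of 3 lists are not reported here and are left out of the counts. Named were the 8 genes, up to 4 called genes with the smallest p in each list (the 2 smallest where none was called), called neighbours, and the 2 nearest patterns of each called member. Outside that rule SERPINB9, FURIN, SPINT1, FN1, CSTA, LAMA3, KDSR, VPS4B and genes listed as near 0 were named after their values were seen. Alternatives were a pseudocount of 0.1, no filter, a filter at 5 FPKM, 2 scalings, robust settings off, a test against a 1.5-fold change, a block for the replicate number, and leaving out libraries singly. Promoter letters come from the RefSeq table, which matched 7 of the 8 genes. Python 3.11.15, pandas 2.3.3 and matplotlib 3.10.9 were used.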

Additional observations from a re-analysis of the deposited data

How the results depend on the processing

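The 833 changed genes became 450 after median-ratio scaling, 376 after upper-quartile scaling, 17 with all genes above 0 tested and 3 against a 1.5-fold change, and ran from 377 (without shWDR43 replicate 1) to 2586 (without shNC replicate 2) with a library left out. Higher members numbered 2 with all libraries, 2 to 4 with a library left out, and 0 both with all genes above 0 tested and against a 1.5-fold change. The log2 difference of PLAUR was 0.0139 without shNC replicate 2, and ran from -0.0549 to 0.0139 over the fits without a library. With a replicate block 563 genes and the same number of members, 2, were called, and among the named genes ST14, KLK10, F11R, TIMP2, CTSD and CTSL no longer passed, while PLGRKT did. The labels do not say that a number marks a shared culture, and deviations of replicates 1 correlated at -0.15 across 13303 genes. A crossed replicate block, chosen after seeing the data, called 1954 genes and 4 members. The upper-quartile factors lowered the median log2 difference of all genes by 0.06. The cause of these moves was not tested. Where 1 library stood for a group, its spread was taken from the other group. FPKM values without read totals give no limit of detection for PLAT or SERPINB8.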
